A study of Mus musculus with 9 samples.

Results

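Sox9 is a transcription factor of the SOX family that binds DNA through an HMG box. In cartilage it switches on collagen and proteoglycan genes together with its relatives Sox5 and Sox6, and in the mammary gland it marks luminal progenitor cells. LATS1 and LATS2 are the kinases of the Hippo pathway that hold back the coactivators YAP and TAZ. To ask what Sox9 contributes once LATS1/2 are lost, EYFP+ mammary cells with floxed Lats1, Lats2 and Sox9 (LATS1/2f/f and Sox9f/f alleles with lsl-EYFP and K8CreERT2, labelled LATS1/2-Sox9-KO) were compared with EYFP+ cells that kept Sox9 (LATS1/2f/f alleles with lsl-EYFP and K8CreERT2, labelled LATS1/2-KO). The members were the 6 RNA-sequencing libraries of these genotypes, 3 each, of 9 in the series. The other 3 libraries came from mice with the reporter and driver alone (lsl-EYFP; K8CreERT2, control) and set the reference level.

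All mice were adult and nulliparous, and all received 2 mg of tamoxifen on 5 consecutive days. Their mammary glands were collected 7 days after the last dose. K8CreERT2 is a tamoxifen-inducible Cre recombinase driven by the keratin 8 promoter, so that recombination starts in luminal cells, and lsl-EYFP marks recombined cells and their descendants. The cells were sorted as live and EYFP+. The sort therefore returned whatever these luminal cells had become, as a mixture. The labels number the libraries of a genotype without saying whether they came from separate mice, so the p-values measure the spread between these libraries, which may be partly technical. Total counts per library were 50508666, 61745346 and 57331239 for LATS1/2-KO, 61967651, 55503365 and 59696754 for LATS1/2-Sox9-KO, and 47003587, 46719296 and 44167762 for control.

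The labels were first checked against the targeted genes. A normalized count is a read count scaled to a common library size. Sox9 (chr11:112782224-112787760 in GRCm38, plus strand) had 23313, 19948 and 21534 normalized counts in control, 7205, 9506 and 12433 in LATS1/2-KO and 8812, 6756 and 6459.8 in LATS1/2-Sox9-KO. The deletion genotypes overlapped, and the difference did not pass the test (log2 fold change -0.40 ± 0.19 SE, adjusted p = 0.25). Lats1, the first of the floxed kinases, fell from the control level to a similar level in both deletion genotypes, with 5672, 5928 and 5940.4 normalized counts in control, 2090.1, 1923 and 2336 in LATS1/2-KO and 2058, 1844 and 1709 in LATS1/2-Sox9-KO. Lats2, the second, had 1039, 865 and 1219.7 normalized counts in control, 1256, 1434 and 1723 in LATS1/2-KO and 1957, 1580.4 and 1239.7 in LATS1/2-Sox9-KO, so its gene-level count was not lower in either deletion genotype than in control. These counts sum reads over all exons, and the reads over the floxed exons were not analysed here, so the Sox9 and Lats2 counts neither show nor refute the deletion. The genotypes are therefore named by their labels throughout. Krt8, whose promoter drives the Cre, was abundant in every library, with 172910, 168810 and 216010 normalized counts in control, 293130, 265240 and 276030 in LATS1/2-KO and 461280, 444590 and 431240 in LATS1/2-Sox9-KO. Epcam, the pan-epithelial adhesion molecule, was abundant too, with 64969, 73109 and 72846 in LATS1/2-KO and 49445, 44462 and 49508 in LATS1/2-Sox9-KO.

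One library stood apart. On the second principal component of the 6 deletion libraries (32.4% of the variance), LATS1/2-KO replicate 1 lay at 62.8, while LATS1/2-KO replicates 2 and 3 lay at -35.8 and -34.5. The libraries labelled LATS1/2-Sox9-KO lay between -6.40 and 9.91 on that axis. The first component (40.7%) separated the genotypes, with LATS1/2-KO between -42.5 and -24.8 and LATS1/2-Sox9-KO between 29.9 and 41.4. Among all 9 libraries, the first component (83.8%) placed control between -132 and -128, LATS1/2-KO between 42.2 and 64.4, and LATS1/2-Sox9-KO between 71.7 and 81.8, the farthest from control. Total counts of calls are given below with and without LATS1/2-KO replicate 1. For many gene lists, counts without single libraries are given where they differ.

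**Figure D1:**
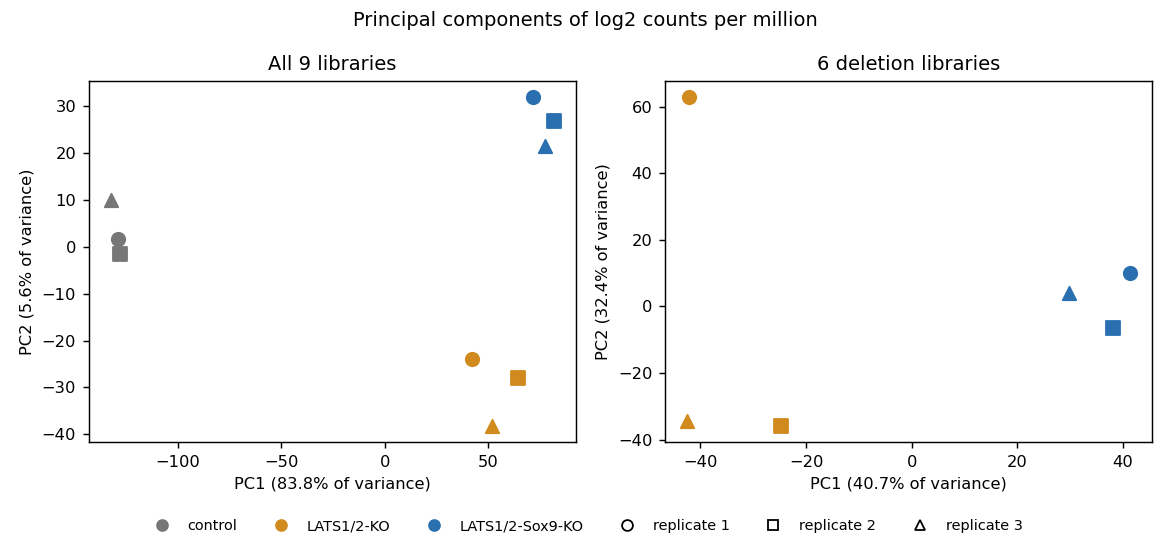
Principal components of the 2000 most variable genes in all 9 libraries (left) and in the 6 deletion libraries (right); each axis gives its share of the variance, colours mark genotypes and symbols mark replicates. LATS1/2-KO replicate 1 lies at 62.8 on the second axis of the right panel, away from replicates 2 and 3 at -35.8 and -34.5.

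A total of 301 genes were higher and 418 lower in LATS1/2-Sox9-KO than in LATS1/2-KO. This is 1.55% and 2.16% of the 19357 genes tested, where the log2 fold change had to exceed 1 in size with a Benjamini-Hochberg adjusted p of at most 0.05 in edgeR's quasi-likelihood test. Genes past both thresholds are referred to as called. Of the 719 called genes, 664 were protein coding, and 718 had no overlap between the 3 libraries of each genotype. The exception was Slc22a17, an organic cation transporter family member, with 159, 44.1 and 100.3 normalized counts in LATS1/2-KO and 44.6, 17.9 and 21.9 in LATS1/2-Sox9-KO. Such separation was also found in 27.9% of all genes tested. Without LATS1/2-KO replicate 1, 497 genes were called higher and 582 lower, and 636 of the 719 genes remained called. The counts fell to 123 higher and 78 lower without LATS1/2-Sox9-KO replicate 2, and to 121 and 157 without LATS1/2-KO replicate 3. Of 154 called genes singled out from the lists and the largest changes, 90 lost their call without LATS1/2-Sox9-KO replicate 2 and 82 without LATS1/2-KO replicate 3. No called gene changed sign under any of the 19 alternative settings in which it was tested. In bulk samples of this kind, a gene at a lower level in each cell and a smaller share of cells that carry it cannot be told apart.

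The genes with the largest increases were taken among called genes whose mean reached 100 normalized counts in the higher genotype. Nos2, the inducible nitric oxide synthase (chr11:78920787-78960254), had 189, 77.9 and 61.1 normalized counts in LATS1/2-KO and 6359, 2019 and 1135 in LATS1/2-Sox9-KO (log2 fold change 4.87 ± 0.73 SE, adjusted p = 0.0081). All 3 LATS1/2-Sox9-KO libraries lay far above the LATS1/2-KO libraries, although they differed among themselves. Serpinb9b and Serpinb2, inhibitors of the serpin family, had 255, 141 and 145 normalized counts in LATS1/2-KO and 1598, 4108 and 4242 in LATS1/2-Sox9-KO, and 618, 98.3 and 90.3 normalized counts in LATS1/2-KO and 1195, 5137 and 6022 in LATS1/2-Sox9-KO, respectively. Serpinb9b was at 0 in each control library, and Serpinb2 reached at most 3.73 there. Il1a, the interleukin-1 alpha cytokine, had 16.0, 13.6 and 25.5 normalized counts in LATS1/2-KO and 188, 247 and 182 in LATS1/2-Sox9-KO (log2 fold change 3.48 ± 0.53 SE, adjusted p = 0.0083). Tigit, an immune checkpoint receptor of lymphocytes, had 16.0, 14.4 and 51.1 normalized counts in LATS1/2-KO and 257, 550 and 548 in LATS1/2-Sox9-KO, and Trex2, a DNA exonuclease of stratified epithelia, had 47.1, 33.0 and 29.2 normalized counts in LATS1/2-KO and 434, 522 and 378 in LATS1/2-Sox9-KO. Neither overlapped between the genotypes, which was a condition of the choice. The other genes among the 10 largest increases were Klra13-ps, Spink8, Ifit1bl1 and Scel, with log2 fold changes of 4.74, 4.33, 4.11 and 3.89. Klra13-ps and Serpinb2 each lost their call in 5 of 17 alternative settings, Spink8 in 3 of 17 and Tigit in 1 of 17. The rest of the 10 kept theirs in such settings. Klra13-ps and Serpinb9b belong to families with near-identical copies, where unique alignment can divide or lose reads, so their values are uncertain.

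The genes with the largest decreases were taken in the same way. Colgalt2, which adds galactose to collagen hydroxylysine, had 166, 801 and 199.7 normalized counts in LATS1/2-KO and 0.928, 3.99 and 15.5 in LATS1/2-Sox9-KO (log2 fold change -5.80 ± 0.88 SE, adjusted p = 0.0082). Ptn, the heparin-binding growth factor pleiotrophin, had 166720, 158500 and 130390 normalized counts in control, 11586, 451 and 1858 in LATS1/2-KO and 191, 118 and 398 in LATS1/2-Sox9-KO (log2 fold change -4.29 ± 1.01 SE, adjusted p = 0.036). Its LATS1/2-KO values spread widely, with replicate 1 the highest, and its log2 fold change was -2.29 without that library, still called. The call was lost in 8 of 18 alternative settings, with estimates of -4.88 to -2.29. Slc7a2, a cationic amino acid transporter, had 67224, 94485 and 116490 normalized counts in control, 2120.2, 307 and 968 in LATS1/2-KO and 82.6, 61.8 and 101 in LATS1/2-Sox9-KO (log2 fold change -3.78 ± 0.61 SE, adjusted p = 0.0099), and fell in steps from control through LATS1/2-KO to the lowest level in LATS1/2-Sox9-KO. Crym, a thyroid hormone binding protein, had 103, 317 and 244 normalized counts in LATS1/2-KO and 18.6, 13.9 and 10.02 in LATS1/2-Sox9-KO. Further decreases in this set were Slc35f3, Gpr37, Fgg, Cnmd and Atp12a, with log2 fold changes of -5.36, -4.92, -4.29, -4.24 and -4.01. Gpr37 and Colgalt2 kept their call in each of 17 alternative settings, while Cnmd lost it in 6 of 17, Atp12a in 5 of 17, Slc35f3 in 4 of 17 and Fgg in 3 of 18.

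Of the cartilage genes known to depend on Sox9, some were called lower. Of the 17 tested members of a list of 20, 16 had an estimate below 0, 6 were called lower and none higher, against 2.16% of all genes called lower. The list median log2 fold change was -1.47, against -0.02 for all genes tested. The chains of collagen IX, a collagen that decorates cartilage fibrils, were among them. Col9a1 had 714, 907 and 192 normalized counts in control, 678, 187 and 309 in LATS1/2-KO and 33.4, 25.9 and 61.9 in LATS1/2-Sox9-KO (log2 fold change -3.27 ± 0.66 SE, adjusted p = 0.022). Col9a2 had 738, 792 and 351 normalized counts in control, 548, 110.1 and 347 in LATS1/2-KO and 48.3, 32.9 and 57.4 in LATS1/2-Sox9-KO (log2 fold change -2.85 ± 0.56 SE, adjusted p = 0.019). Both were lower in every LATS1/2-Sox9-KO library than in any LATS1/2-KO library, and neither was called in LATS1/2-KO against control. Col9a3, the third chain, had 1064, 378 and 437 normalized counts in LATS1/2-KO and 294, 246 and 208 in LATS1/2-Sox9-KO and did not pass the test (log2 fold change -1.33 ± 0.43 SE, adjusted p = 0.101).

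The other called members were Col11a1 and Col27a1 of the fibrillar collagens, and the cartilage membrane proteins Cnmd and Snorc. Col11a1 had 809.6, 908 and 505 normalized counts in control, 1045, 1683 and 2381 in LATS1/2-KO and 486, 638 and 719 in LATS1/2-Sox9-KO, so its level was raised in LATS1/2-KO and was near the control level in LATS1/2-Sox9-KO (log2 fold change -1.47 ± 0.31 SE, adjusted p = 0.026). Snorc had 2238, 1712 and 2049.8 normalized counts in control, 185, 4.24 and 31.9 in LATS1/2-KO and 0, 0 and 3.64 in LATS1/2-Sox9-KO, so it had already fallen in LATS1/2-KO and was close to 0 in LATS1/2-Sox9-KO. Col2a1, the main fibrillar collagen of cartilage, had 20.1, 35.6 and 21.9 normalized counts in LATS1/2-KO and 30.6, 12.0 and 19.1 in LATS1/2-Sox9-KO and did not pass the test. Acan, Matn1 and Hapln1 were too low to be tested. Without LATS1/2-KO replicate 1, 4 of the 17 were called lower and the median was -1.08, with Snorc (-3.70) and Col27a1 (-1.52) no longer called. No member was called without LATS1/2-KO replicate 3 or without LATS1/2-Sox9-KO replicate 2, 2 each without LATS1/2-Sox9-KO replicate 1 and replicate 3, and 3 without control replicate 1, while the medians in these cases lay between -1.56 and -1.47. Col9a1, Col9a2, Col11a1, Col27a1, Cnmd and Snorc all lost their call without LATS1/2-Sox9-KO replicate 1. The 2 members called in that case were others of the list.

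Some relatives of Sox9 were called lower as well. All 14 SOX factors that were tested, Sox9 included, had an estimate below 0, and 5 were called lower, against 2.16% of all genes, with a list median of -0.99. Sox6, the partner of Sox9 in chondrocytes (chr7:115470872-116038796, minus strand), had 551, 678 and 556 normalized counts in control, 595, 973 and 455 in LATS1/2-KO and 65.9, 92.7 and 110.2 in LATS1/2-Sox9-KO (log2 fold change -2.91 ± 0.31 SE, adjusted p = 0.0023). It did not differ between control and LATS1/2-KO beyond the spread of the libraries and was 7.52-fold lower in LATS1/2-Sox9-KO than in LATS1/2-KO. Its call was kept under each of 18 alternative settings. Sox5, the second partner, had 158, 159.9 and 66.0 normalized counts in control, 75.2, 27.1 and 46.5 in LATS1/2-KO and 7.43, 6.98 and 14.6 in LATS1/2-Sox9-KO (log2 fold change -2.34 ± 0.55 SE, adjusted p = 0.036). Sox11 and Sox21, which were close to 0 in control, rose in LATS1/2-KO and were lower in LATS1/2-Sox9-KO. Sox11 had 1.16, 0 and 0 normalized counts in control, 3500.2, 2272 and 6044 in LATS1/2-KO and 1797, 1459 and 1573 in LATS1/2-Sox9-KO, and Sox21 had 15.1, 18.1 and 4.98 normalized counts in control, 469, 571 and 625 in LATS1/2-KO and 190.3, 212 and 247 in LATS1/2-Sox9-KO. Both were still far above control. Sox15 was also called (log2 fold change -1.20 ± 0.30 SE, adjusted p = 0.046). These 4 calls were less stable than that of Sox6, which was the 1 called member without LATS1/2-KO replicate 3 or without any 1 of the LATS1/2-Sox9-KO libraries. Without control replicate 1 or 2 there were 2 called members, and without LATS1/2-KO replicate 2 there were 3. Sox4, the most counted SOX factor, and Sox10 had 23318, 17321 and 26520 normalized counts in LATS1/2-KO and 25024, 12388 and 12316 in LATS1/2-Sox9-KO, and 1783, 2585 and 2447 normalized counts in LATS1/2-KO and 2205, 1828 and 1946 in LATS1/2-Sox9-KO, and did not pass the test.

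**Figure D2:**
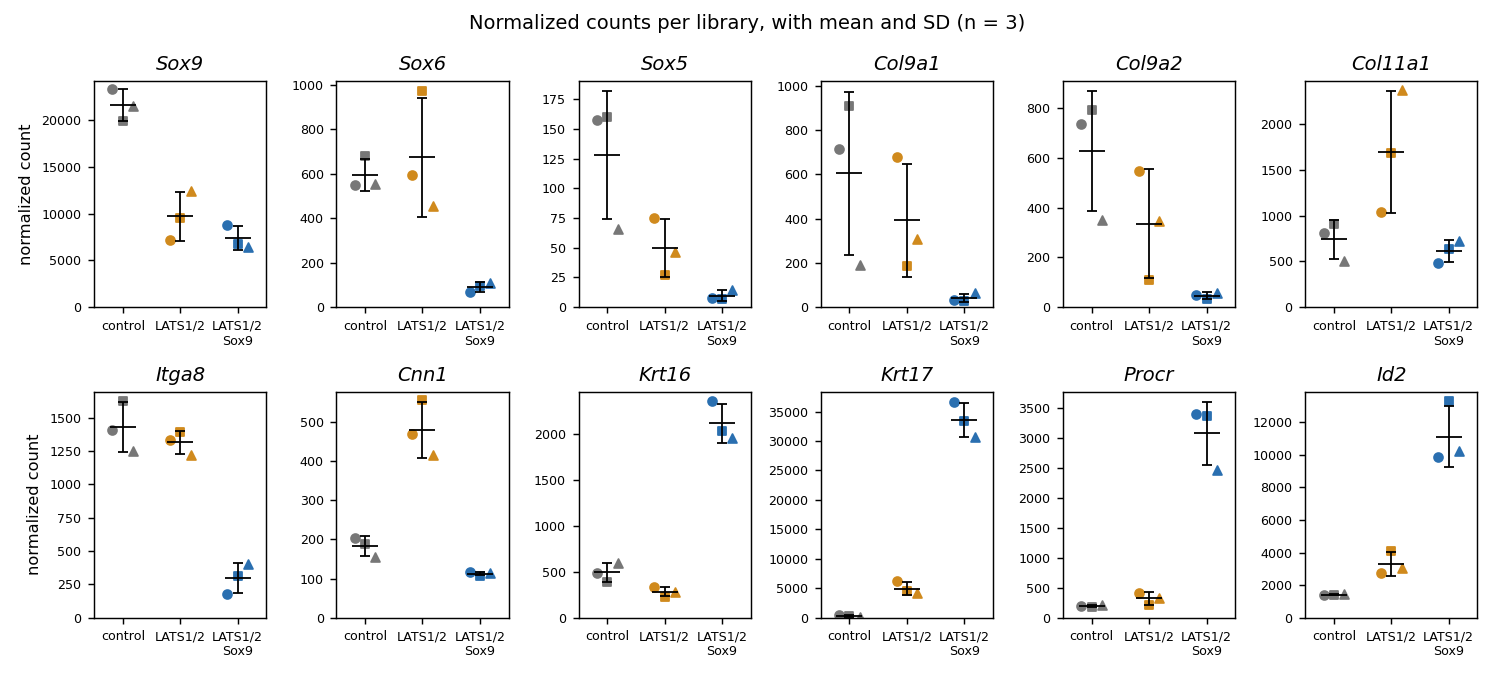
Normalized counts of 12 genes in each library (points, symbols as replicate numbers), with the mean and SD of 3 libraries per genotype (bars); each panel has its own axis from 0. Sox6 and Itga8 are low in the LATS1/2-Sox9-KO libraries alone, Sox9 overlaps between the deletion genotypes, and Krt16, Krt17, Procr and Id2 are highest in the LATS1/2-Sox9-KO libraries.

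All 11 tested basement membrane collagens had an estimate below 0, with a median of -1.24, and 2 were called lower and none higher, against 2.16% and 1.55% of all genes. These were Col8a2, a short-chain collagen (log2 fold change -2.90 ± 0.64 SE, adjusted p = 0.029), and Col18a1, the source of endostatin (log2 fold change -1.06 ± 0.26 SE, adjusted p = 0.041). Neither was called without LATS1/2-KO replicate 3 or without LATS1/2-Sox9-KO replicate 2 or 3. Of 14 other collagens, 12 had an estimate below 0, with a median of -0.83, and the 2 called were Col9a1 and Col9a2. No member of this list was called without LATS1/2-KO replicate 3 or without LATS1/2-Sox9-KO replicate 2. Of 10 fibrillar collagens, Col11a1 and Col27a1 were called lower, with a list median of -0.21. None was called without LATS1/2-KO replicate 3 or without LATS1/2-Sox9-KO replicate 1 or 2. Col11a1 and Col27a1 also lost their call without LATS1/2-Sox9-KO replicate 3. They lost it in 5 of 18 and 10 of 17 alternative settings, respectively. Without LATS1/2-KO replicate 1, 1 fibrillar collagen was called higher and 1 lower, at a median of 0.24.

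Other matrix and adhesion genes moved in both directions. Of 48 matrix glycoprotein and proteoglycan genes tested, 8 were called lower and 2 higher, against 2.16% and 1.55% of all genes. The counts were 8 and 4 without LATS1/2-KO replicate 1. The lower calls numbered 3 without LATS1/2-Sox9-KO replicate 1, 2 without its replicate 2, and 5 without its replicate 3 or without LATS1/2-KO replicate 2 or 3, and the higher calls 1 without LATS1/2-KO replicate 3. Elastin (Eln) had 96.3, 99.8 and 93.3 normalized counts in control, 758, 2179 and 1572 in LATS1/2-KO and 415, 409 and 484 in LATS1/2-Sox9-KO (log2 fold change -1.79 ± 0.32 SE, adjusted p = 0.014), so its rise in LATS1/2-KO was smaller in LATS1/2-Sox9-KO. The glypicans Gpc3, Gpc4 and Gpc6, which tether growth factors to the cell surface, were called lower, with log2 fold changes of -1.82, -1.45 and -1.35. Fbln2, a fibulin of elastic fibres, and Sdc1, a cell surface syndecan, were called higher, at 2.07 and 1.33. Lox, the enzyme that crosslinks collagen and elastin, had 3.48, 1.13 and 8.71 normalized counts in control, 584, 873 and 1243 in LATS1/2-KO and 3884, 6249.7 and 5287 in LATS1/2-Sox9-KO (log2 fold change 2.51 ± 0.32 SE, adjusted p = 0.0042), and was the 1 collagen processing enzyme called higher, beside 4 of 27 called lower. The latter numbered 1 without LATS1/2-Sox9-KO replicate 2 and 2 without its replicate 1 or without LATS1/2-KO replicate 3. Of 25 integrins, Itga8 and Itgb8, which pair with the subunits beta 1 and alpha V, were called lower and none higher, and 2 were called lower whichever library was left out, with 1 called higher without LATS1/2-KO replicate 1. Itga8 had 1410.4, 1624 and 1249.6 normalized counts in control, 1332, 1395 and 1221 in LATS1/2-KO and 180.1, 314 and 401 in LATS1/2-Sox9-KO (log2 fold change -2.14 ± 0.26 SE, adjusted p = 0.0038), with no overlap between LATS1/2-Sox9-KO and either other genotype. Adam8, a membrane metalloprotease, had 361, 418 and 337 normalized counts in control, 4292, 3235 and 4607 in LATS1/2-KO and 18360, 17536 and 15476 in LATS1/2-Sox9-KO (log2 fold change 2.08 ± 0.15 SE, adjusted p = 0.00087); its adjusted p was the smallest of the comparison, shared with Procr, Krt16, Ifi202b and Limch1.

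Type I interferon signalling runs from the receptor through STAT and IRF factors to genes with an interferon-stimulated response element, whose products bind, modify or degrade viral RNA and present antigen. Of 46 interferon-stimulated genes tested, 29 were called higher in LATS1/2-Sox9-KO and none lower, against 1.55% of all genes called higher. The list median was 1.46, and 44 estimates were above 0. These genes were already raised in LATS1/2-KO, where 33 of the 46 were called higher than control and 1 lower, against 17.1% and 17.5% of all genes. Oasl1, an oligoadenylate synthetase-like antiviral protein, had 153, 146 and 114 normalized counts in control, 1232, 2247 and 1943 in LATS1/2-KO and 22825, 13676 and 8076 in LATS1/2-Sox9-KO (log2 fold change 3.04 ± 0.36 SE, adjusted p = 0.0037). Isg15, a ubiquitin-like modifier, had 531, 499 and 468 normalized counts in control, 4419.9, 4622 and 4967 in LATS1/2-KO and 35543, 19033 and 12633 in LATS1/2-Sox9-KO (log2 fold change 2.26 ± 0.31 SE, adjusted p = 0.0056). Ifit3, which binds viral RNA with Ifit1, had 39.4, 73.7 and 85.9 normalized counts in control, 2725, 2366 and 1638 in LATS1/2-KO and 37636, 16846 and 8879 in LATS1/2-Sox9-KO (log2 fold change 3.24 ± 0.48 SE, adjusted p = 0.0079), with the reservation that Ifit3 and Ifit3b are near-identical copies. Rsad2, the antiviral enzyme viperin, had 712, 889 and 777 normalized counts in control, 7298, 13757 and 10651 in LATS1/2-KO and 119640, 51244 and 28642 in LATS1/2-Sox9-KO (log2 fold change 2.65 ± 0.46 SE, adjusted p = 0.013).

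The level differed among the LATS1/2-Sox9-KO libraries. All 29 called members were highest in LATS1/2-Sox9-KO replicate 1 and lowest in replicate 3, with a median ratio of 2.96 between these libraries. In replicate 3 they were still a median of 1.71 times the highest LATS1/2-KO library. None of the 29 overlapped, which adds little, since they were chosen by their call. Of all 719 called genes, 718 had no overlap, against 27.9% of all genes tested. Without LATS1/2-Sox9-KO replicate 1, 22 were called and the list median was 1.09. Without LATS1/2-KO replicate 3, 9 were called at a median of 1.43, and without LATS1/2-Sox9-KO replicate 2, 16 were called at 1.61. Without LATS1/2-KO replicate 1, 29 were called at 1.52. Of the factors that carry the signal, Irf7 was called higher (log2 fold change 1.81 ± 0.34 SE, adjusted p = 0.017), and Stat2, also called, had 2236, 2801 and 3364 normalized counts in LATS1/2-KO and 13673, 6767 and 5028 in LATS1/2-Sox9-KO. Irf9 missed the threshold (log2 fold change 0.64 ± 0.18 SE, adjusted p = 0.066).

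**Figure D3:**
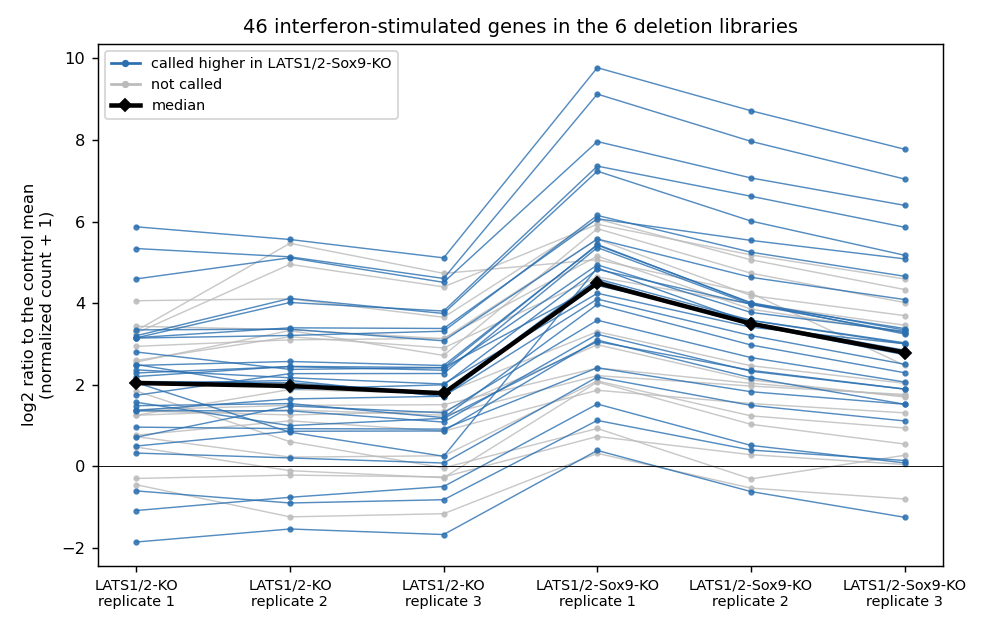
Levels of the 46 tested interferon-stimulated genes in the 6 deletion libraries, as the log2 ratio of the normalized count plus 1 to the control mean plus 1; each line joins the values of 1 gene and marks no order among libraries, blue lines are the 29 genes called higher in LATS1/2-Sox9-KO, and the black line is the median over genes. The 3 libraries labelled LATS1/2-Sox9-KO lie above those labelled LATS1/2-KO, with replicate 1 the highest.

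The promoters of these genes are shown because the element that interferon signalling acts on can be read in them. The sequences are the 150 bases before the transcription start of the called genes, from RefSeq on GRCm38.p6 and 5′ to 3′ on the strand of the gene, for 5 of the 6 called members with the smallest adjusted p among those with a promoter in the table (the other, Ifit3b, a near copy of Ifit3, has no match in these 150 bases). Capitals mark every base in a match to GAAANNGAAA, the core of the response element, on either strand. They come from chr5:120777660-120777809 for Oas3 (minus strand), chr4:156200819-156200968 for Isg15 (minus), chr19:34640739-34640888 for Ifit1 (plus), chr19:34583379-34583528 for Ifit3 (plus) and chr5:114923090-114923239 for Oasl1 (plus).
Oas3: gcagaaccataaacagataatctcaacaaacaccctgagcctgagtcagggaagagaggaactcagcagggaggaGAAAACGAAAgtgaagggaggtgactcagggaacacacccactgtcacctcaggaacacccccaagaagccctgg
Isg15: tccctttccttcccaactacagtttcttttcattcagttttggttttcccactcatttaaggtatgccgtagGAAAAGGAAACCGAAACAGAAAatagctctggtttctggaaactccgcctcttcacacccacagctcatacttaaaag
Ifit1: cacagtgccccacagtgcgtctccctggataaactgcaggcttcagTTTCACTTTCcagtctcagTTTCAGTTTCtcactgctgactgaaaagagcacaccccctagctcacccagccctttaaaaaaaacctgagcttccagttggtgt
Ifit3: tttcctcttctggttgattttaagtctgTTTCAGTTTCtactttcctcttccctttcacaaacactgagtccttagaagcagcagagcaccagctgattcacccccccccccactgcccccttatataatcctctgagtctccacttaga
Oasl1: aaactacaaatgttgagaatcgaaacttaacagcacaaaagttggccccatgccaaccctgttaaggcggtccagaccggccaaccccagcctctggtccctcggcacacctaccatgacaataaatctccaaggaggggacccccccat

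Oas3, Isg15, Ifit1 and Ifit3 carried at least 1 match, the first starting 75, 78, 104 and 122 bases before the start site, and Oasl1 had no match to these letters. In windows of 250 bases before to 50 after the start site, the element was found in 14 of 21 called interferon-stimulated genes with a promoter in the table (66.7%), against 447 of 12104 tested genes (3.69%). Taking all tested interferon-stimulated genes with a promoter, called or not, it was found in 19 of 33 (57.6%). Among all genes called higher it was found in 35 of 205 (17.1%), and in 21 of 184 (11.4%) outside the interferon-stimulated list. Among genes called lower it was found in 11 of 290 (3.79%), close to the share of all tested genes. The letters AACAATG, a core recognised by SOX proteins, were found in 6 of 290 genes called lower (2.07%) and 4 of 205 called higher (1.95%), against 2.55% of all tested genes. These are descriptions of letters in short windows, and distal sites were not examined.

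Interferons themselves were near the limit of detection. Ifnb1, the beta interferon gene, had 8.02, 14.4 and 31.9 normalized counts in LATS1/2-KO, 93.8, 7.97 and 15.5 in LATS1/2-Sox9-KO and 0 in each control library. The high value came from LATS1/2-Sox9-KO replicate 1 alone, the library with the highest interferon-stimulated genes. Ifna4 reached 17.6 in the same library and 13.0 in replicate 2, and Ifng had no more than 0.847 in any library. The receptor genes Ifnar1 and Ifnar2 had 3619, 4146 and 3810.4 normalized counts in LATS1/2-KO and 3156, 3251 and 3269 in LATS1/2-Sox9-KO, and 1635, 2109.7 and 1934 normalized counts in LATS1/2-KO and 1574, 1622 and 1611 in LATS1/2-Sox9-KO, and neither was called. A list of 31 tested RNA and DNA sensors and interferon regulators, added after the values were seen, had 8 members called higher and none lower, against 1.55% of all genes called higher. The count was 3 without LATS1/2-KO replicate 3, 4 without LATS1/2-Sox9-KO replicate 2 and 11 without LATS1/2-KO replicate 1. Tlr3, the endosomal receptor for double-stranded RNA, had 1525, 1772 and 1704 normalized counts in control, 7288, 10999 and 7532 in LATS1/2-KO and 19649, 22425 and 16674 in LATS1/2-Sox9-KO (log2 fold change 1.19 ± 0.17 SE, adjusted p = 0.0075), and Zbp1, a sensor of Z-form nucleic acids, had 1932, 1437 and 1478 normalized counts in LATS1/2-KO and 12020, 4427 and 2621 in LATS1/2-Sox9-KO.

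Antigen presentation and cytokine genes followed a mixed pattern. Of 16 genes of MHC class I and II presentation, 2 were called higher and 1 lower, against 1.55% and 2.16% of all genes. Without LATS1/2-Sox9-KO replicate 1 there was 1 higher call, and without its replicate 3 there were 7. The lower call was lost without any 1 of the LATS1/2-Sox9-KO libraries. Nlrc5, the transactivator of MHC class I genes, had 2058, 1574 and 1808 normalized counts in control, 657, 541 and 761 in LATS1/2-KO and 5338, 2623 and 1722 in LATS1/2-Sox9-KO (log2 fold change 2.31 ± 0.36 SE, adjusted p = 0.0088), so its fall in LATS1/2-KO was reversed past the control level in 2 of the LATS1/2-Sox9-KO libraries. B2m, the light chain of MHC class I, had 62540, 67816 and 65226 normalized counts in LATS1/2-KO and 186960, 138350 and 108370 in LATS1/2-Sox9-KO (log2 fold change 1.15 ± 0.18 SE, adjusted p = 0.0085). H2-Ab1, an MHC class II chain, was called lower (log2 fold change -2.71 ± 0.59 SE, adjusted p = 0.029). Among 41 chemokines and interleukins, 8 were called higher and 1 lower. There were 4 called higher and none lower without LATS1/2-KO replicate 3 or without LATS1/2-Sox9-KO replicate 2, and the lower call was also lost without LATS1/2-KO replicate 2 or LATS1/2-Sox9-KO replicate 3. Ccl5, which attracts T cells, had 378, 685 and 556 normalized counts in LATS1/2-KO and 7218, 2694 and 1707 in LATS1/2-Sox9-KO, highest in the same library as the interferon-stimulated genes. Il15, Il24, Cxcl3 and Cxcl5 were also higher, with log2 fold changes of 1.51, 2.28, 3.16 and 2.86, and Cxcl14 was lower at -2.29. Ifi202b, a DNA-binding protein of the interferon-inducible p200 family, went the other way, with 3876, 3841 and 7128 normalized counts in control, 1517, 1568 and 1061 in LATS1/2-KO and 129, 104 and 108 in LATS1/2-Sox9-KO (log2 fold change -3.60 ± 0.28 SE, adjusted p = 0.00087). It was chosen after its values were seen, and p200 genes have close copies. The strain of origin of its alleles in each genotype was not tested.

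Of 22 basal keratins and markers, 3 were called higher, against 1.55% of all genes, and none lower. The list median was 0.26, with 7 estimates below 0. Krt17 (chr11:100256217-100261029, minus strand), a keratin of basal and injured epithelium, had 431, 311 and 188 normalized counts in control, 6198, 4483 and 4168 in LATS1/2-KO and 36551, 33391 and 30718 in LATS1/2-Sox9-KO (log2 fold change 2.76 ± 0.27 SE, adjusted p = 0.0015). Krt16, a keratin of hyperproliferative epidermis, had 489, 391 and 597 normalized counts in control, 332, 230.5 and 284 in LATS1/2-KO and 2351, 2036 and 1955 in LATS1/2-Sox9-KO (log2 fold change 2.91 ± 0.20 SE, adjusted p = 0.00087). Procr, the protein C receptor that marks a subset of basal mammary cells, had 202, 186 and 214 normalized counts in control, 417, 213 and 337 in LATS1/2-KO and 3400.3, 3372 and 2475 in LATS1/2-Sox9-KO (log2 fold change 3.26 ± 0.25 SE, adjusted p = 0.00087). These were the 3 called genes, and the median was 0.62 without LATS1/2-KO replicate 1 and 0.69 without LATS1/2-Sox9-KO replicate 1. Krt14, the basal keratin, had 909, 501 and 606 normalized counts in control, 252970, 140250 and 139510 in LATS1/2-KO and 117090, 239970 and 349680 in LATS1/2-Sox9-KO, and did not differ beyond the spread of the libraries (log2 fold change 0.41 ± 0.38 SE, adjusted p = 0.586), and Krt5 did not pass the test either (log2 fold change 1.53 ± 0.55 SE, adjusted p = 0.131). Trp63, the master factor of basal cells, was low in both deletion genotypes, with 373, 2154 and 2133 normalized counts in control, 70.2, 40.7 and 53.8 in LATS1/2-KO and 32.5, 109.6 and 114 in LATS1/2-Sox9-KO.

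A list of 51 cornified envelope and squamous genes, added after values were seen, had 12 of 38 tested members called higher and none lower, against 1.55% of all genes called higher, with a median of 0.70. There were 15 calls at a median of 1.35 without LATS1/2-KO replicate 1, and 6 calls without LATS1/2-KO replicate 3 or LATS1/2-Sox9-KO replicate 2, at medians of 0.90 and 0.77. Scel, a cornified envelope protein, had 0, 2.27 and 2.49 normalized counts in control, 138, 108 and 62.9 in LATS1/2-KO and 657, 1979 and 1941 in LATS1/2-Sox9-KO (log2 fold change 3.89 ± 0.48 SE, adjusted p = 0.0042). Evpl and Ppl, the envelope plakins envoplakin and periplakin, were both called at 1.47. Cnfn, Csta1, Ly6d and the uroplakin genes Upk3b and Upk3bl were called higher at 5.89, 2.21, 1.78, 2.90 and 3.08. Among 25 simple keratins and junction genes, 7 passed the p threshold as higher, against 3.13% of all genes, and 1 as lower. Krt7, Krt8 and Krt18 had adjusted p-values of 0.0043, 0.013 and 0.0052 with log2 fold changes of 0.81, 0.68 and 0.82, and so passed the p threshold without being called. Cldn1, a tight junction claudin, and Rab25, an epithelial trafficking GTPase, were the 2 called, at 1.80 and 1.14, with 4 called without LATS1/2-KO replicate 1 and 1 without LATS1/2-KO replicate 3 or LATS1/2-Sox9-KO replicate 2.

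Of 13 contractile genes of myoepithelial cells, 3 were called lower and none higher, against 2.16% of all genes called lower. Cnn1, or calponin, had 204, 189 and 154 normalized counts in control, 468, 555 and 415 in LATS1/2-KO and 117, 108 and 114 in LATS1/2-Sox9-KO (log2 fold change -2.09 ± 0.21 SE, adjusted p = 0.0015), so that it rose in LATS1/2-KO and lay below every control value in LATS1/2-Sox9-KO. Acta2, smooth muscle actin, had 974, 992 and 662 normalized counts in control, 8402, 15186 and 11128 in LATS1/2-KO and 3904, 5431 and 4427 in LATS1/2-Sox9-KO (log2 fold change -1.33 ± 0.23 SE, adjusted p = 0.013), and Oxtr, the oxytocin receptor, was lower as well (log2 fold change -2.55 ± 0.59 SE, adjusted p = 0.034). With 1 library left out, 2 to 4 were called lower, and 1 was called higher without LATS1/2-Sox9-KO replicate 1. Myh11, the smooth muscle myosin heavy chain, had 120.3, 129.6 and 167 normalized counts in LATS1/2-KO and 184, 377 and 266 in LATS1/2-Sox9-KO and missed the threshold (log2 fold change 0.99 ± 0.27 SE, adjusted p = 0.057).

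Of 22 luminal progenitor and alveolar genes tested, 7 were called lower and none higher, against 2.16% of all genes called lower, with a median of -1.21 and 3 estimates above 0. Csn3, the milk protein kappa-casein, had 39551, 45732 and 28165 normalized counts in control, 19771, 20118 and 19695 in LATS1/2-KO and 9287, 5101 and 6549 in LATS1/2-Sox9-KO (log2 fold change -1.51 ± 0.23 SE, adjusted p = 0.008). Cd14, a progenitor surface receptor, had 14437, 13684 and 7231 normalized counts in control, 11799, 13078 and 10723 in LATS1/2-KO and 5996, 4632 and 5823 in LATS1/2-Sox9-KO (log2 fold change -1.11 ± 0.23 SE, adjusted p = 0.024), at the control level in LATS1/2-KO and lower in LATS1/2-Sox9-KO. Rasef, a Rab-like GTPase, Plet1, a surface protein of progenitors, Hey1, a Notch target, Lcn2, the iron-binding lipocalin, and Tspan8, a tetraspanin, were called at -1.18, -1.23, -1.56, -1.31 and -2.01. Kit and Elf5, a receptor and a transcription factor of luminal progenitors, had 6728, 33146 and 19067 normalized counts in LATS1/2-KO and 5919, 6742 and 5186 in LATS1/2-Sox9-KO, and 3705, 4590.5 and 3237 normalized counts in LATS1/2-KO and 1239, 1690 and 2449 in LATS1/2-Sox9-KO, and did not pass the test, although Kit was called without LATS1/2-KO replicate 1 (-2.13). In that case 8 of the 22 were called lower. The count was 2 without LATS1/2-Sox9-KO replicate 2 or 3, 3 without LATS1/2-KO replicate 3 and 4 without LATS1/2-Sox9-KO replicate 1, with medians between -1.24 and -1.06. Among 20 mature luminal markers the hormone receptor gene Pgr, for the progesterone receptor, fell further, with 17143, 20895 and 30018 normalized counts in control, 658, 121 and 358 in LATS1/2-KO and 43.6, 15.9 and 44.6 in LATS1/2-Sox9-KO (log2 fold change -3.43 ± 0.60 SE, adjusted p = 0.014), and Ly6a, the surface protein Sca1, rose (log2 fold change 2.21 ± 0.38 SE, adjusted p = 0.013). The Pgr call was lost without LATS1/2-Sox9-KO replicate 2 and the Ly6a call without LATS1/2-KO replicate 3, and 4 were called lower without LATS1/2-KO replicate 2. Esr1, the estrogen receptor, and the luminal factors Foxa1 and Gata3 were low in both deletion genotypes, and their log2 fold changes between them were -0.17, -0.22 and 0.03, none passing the test.

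**Figure D4:**
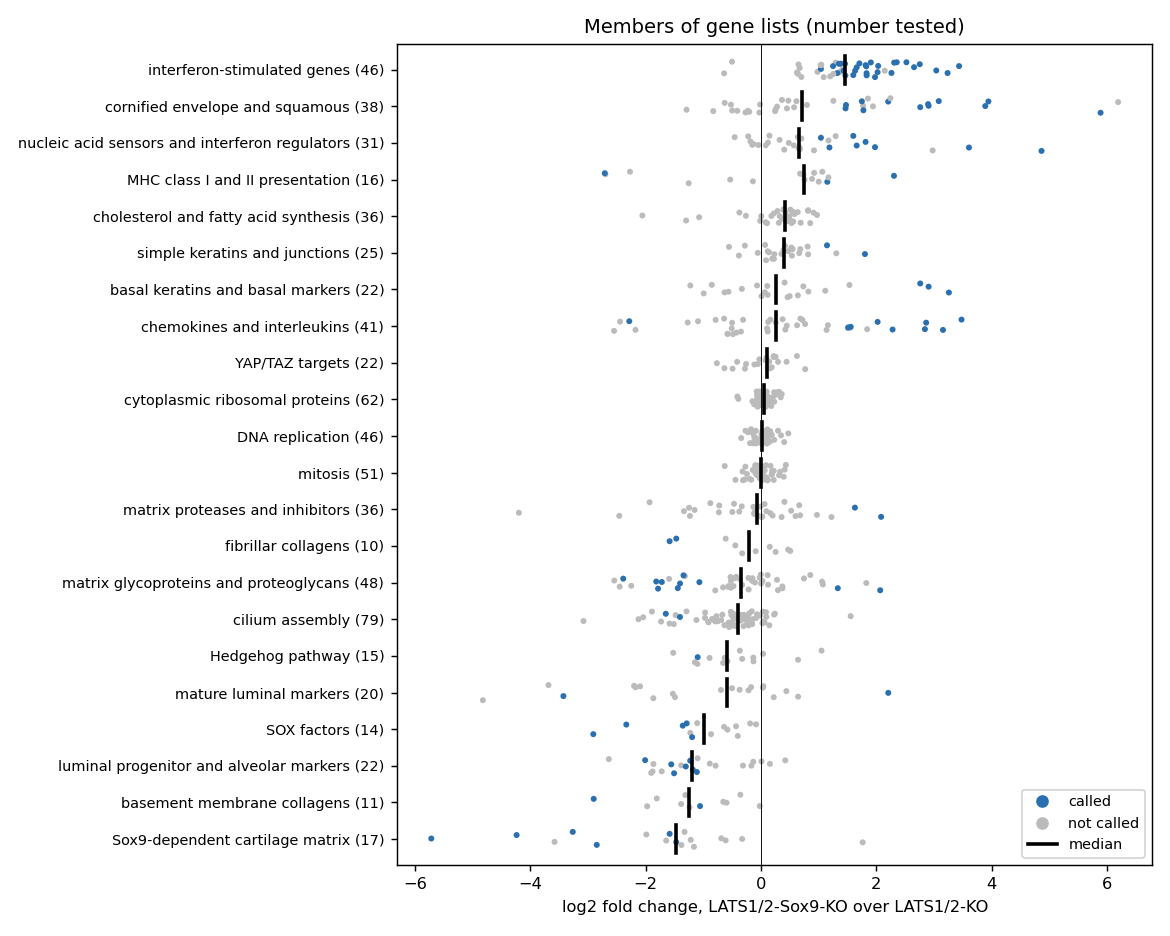
Log2 fold change of LATS1/2-Sox9-KO over LATS1/2-KO for each tested member of 22 gene lists (points, blue where called), with the list median (black bar) and the number tested in parentheses; vertical position within a row is arbitrary. Interferon-stimulated genes have the highest median (1.46) and Sox9-dependent cartilage matrix genes the lowest (-1.47), while DNA replication, mitosis and ribosomal protein genes cluster at 0.

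Counts of signalling genes are read against 1.55% of all genes called higher and 2.16% called lower. Of 45 TGF-beta and BMP pathway genes, 3 were called higher and 2 lower. Id2 and Id3, inhibitors of basic helix-loop-helix factors and BMP targets, were called higher. Id2 had 1419.7, 1412 and 1445 normalized counts in control, 2728, 4126 and 3068 in LATS1/2-KO and 9849, 13288 and 10226 in LATS1/2-Sox9-KO (log2 fold change 1.75 ± 0.17 SE, adjusted p = 0.0015), and Id3 was called at 1.09. Bmp3, a BMP ligand, and Tgfbr3, a TGF-beta co-receptor, were lower at -2.75 and -1.18, and Fst, an activin antagonist, was higher at 1.30. Tcf7, a Wnt effector, and the secreted Wnt regulators Dkk3 and Sfrp2 were the 3 called of 42 Wnt genes, all lower, at -1.54, -1.24 and -2.78. Of 22 Notch pathway genes Hey1 and Lfng, a glycosyltransferase that modifies Notch, were the 2 called, both lower, and of 28 FGF and EGF genes Fgfbp1, a carrier of FGFs, was higher at 1.75 while Fgfr3, Fgfrl1 and Nrg2 were lower. Immediate early factors Egr2 and Egr3 were lower at -1.65 and -1.61. These counts were small and depended on single libraries. Without LATS1/2-Sox9-KO replicate 2, none of the Wnt, TGF-beta and BMP, FGF and EGF or Notch genes was called lower, and without LATS1/2-KO replicate 3, there was 1 lower Wnt call and none among FGF and EGF genes.

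Most cilium genes had estimates below 0. Of 79 cilium assembly genes, 68 had an estimate below 0 and the median was -0.39. At the p threshold alone 12 were lower and none higher, against 3.33% and 3.13% of all genes, and 2 of these, Dnah5 and Cfap69 of motile cilia, were called. There were 6 calls without LATS1/2-KO replicate 1, and without LATS1/2-KO replicate 3 or LATS1/2-Sox9-KO replicate 2 there were none. Bbs9 and Bbs2 of the BBSome, Dync2h1, the retrograde motor, and Tmem216 of the transition zone passed the p threshold at -0.91, -0.79, -0.97 and -0.97. Smo, the transducer of Hedgehog signals at the cilium, had 5092, 4888 and 4454 normalized counts in control, 2942, 3042 and 3666 in LATS1/2-KO and 2025, 1645 and 1525 in LATS1/2-Sox9-KO (log2 fold change -0.89 ± 0.14 SE, adjusted p = 0.0086). The co-receptor Cdon was called lower (log2 fold change -1.10 ± 0.21 SE, adjusted p = 0.018). It was the 1 called of 15 tested Hedgehog pathway genes, against 2.16% of all genes called lower. The Cdon call was lost without LATS1/2-KO replicate 3 or without LATS1/2-Sox9-KO replicate 2 or 3.

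None of 46 DNA replication genes and none of 51 mitosis genes passed the p threshold, with medians of 0.01 and 0.00, although 34 and 50 of them were called higher in LATS1/2-KO than in control, against 17.1% of all genes. None of 22 canonical YAP/TAZ targets was called, and Rbms3 was the only one past the p threshold (log2 fold change -0.64 ± 0.14 SE, adjusted p = 0.03). Ccn2, a well known target of YAP and TAZ, had 1399, 1047 and 966 normalized counts in control, 78001, 215950 and 144860 in LATS1/2-KO and 103830, 89847 and 64233 in LATS1/2-Sox9-KO and did not pass the test (log2 fold change -0.77 ± 0.32 SE, adjusted p = 0.195), although it was called without LATS1/2-KO replicate 1 (-1.07). Of 157 tested YAP/TAZ targets that the study had selected on these samples by their rise in LATS1/2-KO, 2 were called higher and 1 lower, against 1.55% and 2.16% of all genes. None was called without LATS1/2-Sox9-KO replicate 2, and 4 were called higher and 2 lower without its replicate 1. Of 46 Sox9 targets selected by the study in the same way, 3 (Gpr37, Cpm and Celf2) were called lower and 1 (Id2) higher, against the same shares of all genes, with a median of -0.05. Without LATS1/2-Sox9-KO replicate 2, 1 was called lower and 1 higher, and without LATS1/2-KO replicate 1, 3 lower and 4 higher. Both lists were chosen on these samples and are not independent evidence. No ribosomal protein or respiratory chain gene was called. Of 36 cholesterol and fatty acid synthesis genes, 30 had an estimate above 0 with a median of 0.42, and 5 passed the p threshold as higher, against 3.13% of all genes, among them Mvk and Pmvk, the kinases of mevalonate (log2 fold change 0.97 ± 0.18 SE, adjusted p = 0.016 for the latter).

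Each called gene was then placed against the control level. A change was toward control where LATS1/2-KO was itself called against control in the opposite direction, and further from control where it was called in the same direction. Of the 719 called genes, 153 (21.3%) moved toward control, 303 (42.1%) moved further away and 263 (36.6%) had no call in LATS1/2-KO against control. For reference, 17.1% of all genes tested were called higher and 17.5% lower in LATS1/2-KO than in control. Both contrasts use the LATS1/2-KO libraries, so that an error in these enters them with opposite signs, and the counts are a description without a test. Without LATS1/2-KO replicate 1 they were 336 toward and 329 further, so that the excess of genes moving away rested on that library. With any other library left out, more genes moved further than toward, with 28 to 172 toward and 87 to 340 further.

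**Figure D5:**
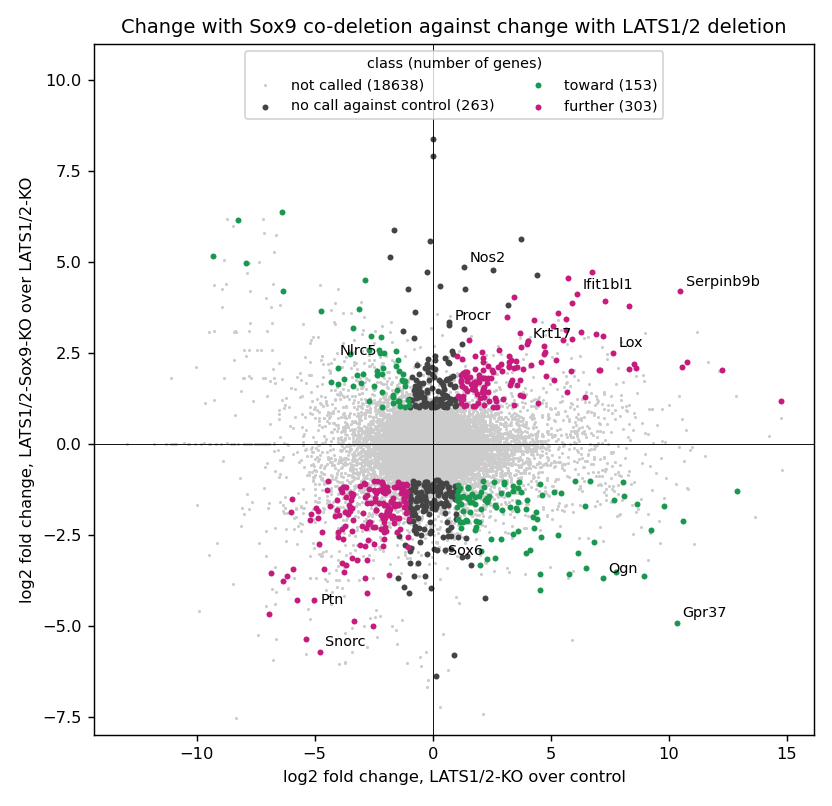
Log2 fold change of LATS1/2-Sox9-KO over LATS1/2-KO (vertical) against that of LATS1/2-KO over control (horizontal) for the 19357 tested genes; colours mark called genes by whether they moved toward control (153), further from it (303) or had no call against it (263). Horizontal values of genes near 0 in control depend on the fit's handling of low counts and give no bound; Serpinb9b and Gpr37, both at 0 in control, lie far right above and below the axis.

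Genes that moved toward control were mainly genes called higher in LATS1/2-KO than in control: 102 fell and 51 rose. Among the 102, the median change undid 64.2% of the LATS1/2-KO change on the log2 scale (quartiles 41.1% and 106%), and 30 ended on the other side of the control level. Among the 51, the median was 85.4% (66.0% to 118%), and 19 ended on the other side. All 10 genes with the largest changes toward control were decreases. Ogn, the small proteoglycan osteoglycin, had 25.5, 22.7 and 7.47 normalized counts in control, 713, 5362 and 2225 in LATS1/2-KO and 329, 197 and 113 in LATS1/2-Sox9-KO (log2 fold change -3.70 ± 0.69 SE, adjusted p = 0.017). Adamts20, a matrix metalloprotease, had 3.48, 2.27 and 3.73 normalized counts in control, 209, 1162 and 742 in LATS1/2-KO and 51.1, 73.7 and 57.4 in LATS1/2-Sox9-KO (log2 fold change -3.53 ± 0.53 SE, adjusted p = 0.0081), and Scube3, a secreted co-ligand, had 249, 304 and 49.8 normalized counts in control, 4489, 1878 and 3085 in LATS1/2-KO and 452, 405 and 316 in LATS1/2-Sox9-KO (log2 fold change -3.01 ± 0.54 SE, adjusted p = 0.014). All 3 stayed above every control library, Scube3 by the least. Slit2 and Sema3d, guidance cues of axons and cell migration, had 31.3, 73.7 and 162 normalized counts in control, 523, 257 and 891 in LATS1/2-KO and 77.0, 37.9 and 75.6 in LATS1/2-Sox9-KO, and 1.16, 0 and 0 normalized counts in control, 372, 309 and 85.7 in LATS1/2-KO and 28.8, 12.0 and 20.9 in LATS1/2-Sox9-KO. Slit2 returned to the range of the control libraries, and Sema3d stayed above it. Slit2 was not called without LATS1/2-KO replicate 3 or without any 1 of the LATS1/2-Sox9-KO libraries, and Sema3d was not called without LATS1/2-Sox9-KO replicate 2. Both are among 55 tested genes of neuron migration and axon guidance, of which 28 had an estimate above 0 and 27 below, with 1 called higher and 5 lower, against 1.55% and 2.16% of all genes. None was called lower without LATS1/2-Sox9-KO replicate 2. Gpr37, Atp12a, Ptprd, Chodl and Fibin made up the 10, with log2 fold changes between -4.92 and -3.01. Chodl and Fibin each lost their call in 5 of 17 alternative settings, Ogn in 2 of 17 and Scube3 in 2 of 18, while Adamts20 and Ptprd kept theirs. Among increases toward control, chosen after values were seen, Capn5, a calpain protease, had 7351, 10547 and 11468 normalized counts in control, 2249, 2169.8 and 2288 in LATS1/2-KO and 10548, 7935 and 7096 in LATS1/2-Sox9-KO (log2 fold change 1.93 ± 0.19 SE, adjusted p = 0.0015), with 2 of 3 LATS1/2-Sox9-KO libraries within the control range. Tmprss4, a membrane serine protease, had 1360.5, 1279 and 1670.2 normalized counts in control, 76.2, 114 and 75.7 in LATS1/2-KO and 373, 363 and 389 in LATS1/2-Sox9-KO (log2 fold change 2.07 ± 0.20 SE, adjusted p = 0.0015), and stayed below every control library.

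Genes that moved further comprised 171 that fell and 132 that rose. The largest included the increases Klra13-ps, Serpinb9b, Ifit1bl1, Tigit, Serpinb2 and Scel and the decreases Slc35f3, Ptn and Fgg. Of the 46 interferon-stimulated genes, 22 were in this class, 1 (Iigp1, an immunity-related GTPase) moved toward control and 6 had no call against control. The decreases included Pgr, Plet1 and Rasef of the luminal lists. Gpx3, the extracellular glutathione peroxidase, chosen after its values were seen, had 367830, 394420 and 764010 normalized counts in control, 9359, 952 and 3049.8 in LATS1/2-KO and 347, 354 and 444 in LATS1/2-Sox9-KO (log2 fold change -3.54 ± 0.70 SE, adjusted p = 0.02). Its LATS1/2-KO libraries differed among themselves, with replicate 1 the highest, and without that library the log2 fold change was -2.39. Its call was lost without any 1 of the LATS1/2-Sox9-KO libraries. Of the 263 genes without a call against control, 118 rose and 145 fell, and of these 85 and 118 were called in LATS1/2-Sox9-KO against control. Sox6, Itga8, Procr and Krt16 were of this kind.

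Markers of other cells that a mammary sort could hold were looked at beside these changes, since the sort used live staining and EYFP alone. Calls among them are read against 1.55% of all genes called higher and 2.16% called lower. No immune marker of 13 tested was called. The summed level of 19 markers was 4740, 3259 and 2221 normalized counts in LATS1/2-KO and 3767, 3898 and 5077 in LATS1/2-Sox9-KO, most of it Csf1r. The T cell gene Cd8a reached at most 0.996 and Ptprc, the pan-leukocyte CD45, lay between 10.9 and 166. The full list of 21 immune markers included Cd3e and Ms4a1, and for 2 of the 21 no counts were found in the 6 deletion libraries. The immune sum was highest in LATS1/2-Sox9-KO replicate 3, in which the interferon-stimulated genes were the lowest of the LATS1/2-Sox9-KO libraries. Endothelial markers summed to 1551, 1131 and 1185 and to 500.35, 1176 and 1338, with 1 of 12 called, Tek, an endothelial receptor (log2 fold change -2.27 ± 0.40 SE, adjusted p = 0.014), and Pecam1 the most counted. Fibroblast markers summed to 11022, 3350 and 3833 and to 4856, 4992 and 8797, with none of 12 called and Col3a1 the most counted. LATS1/2-KO replicate 1 was the highest of the 6 in the fibroblast sum. Adipocyte markers, led by Fabp4, summed to 495, 7191 and 3838 and to 88.2, 2353 and 1588, lowest in replicate 1 of both genotypes, with none of 10 called. Pericyte markers, led by Notch3, had none of 5 called, and Schwann markers, led by Erbb3, had Ncmap called lower of 7 tested (log2 fold change -1.68 ± 0.29 SE, adjusted p = 0.013). Erythroid markers summed to at most 87.3 in the 6 libraries, with Alas2 called lower of 2 tested and Hbb-bs at 0 in all 6. Myoepithelial markers, led by Acta2, summed to 10015, 17173 and 12824 and to 4872, 8457 and 6686, lower in every LATS1/2-Sox9-KO library, with 3 of 9 called lower. None of these sums was higher in every LATS1/2-Sox9-KO library than in every LATS1/2-KO library. The part of other cells in the results was not tested.

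Position near the floxed Sox9 gene was looked at as well. Within 10 Mb of Sox9 on chromosome 11, 17 of 301 tested genes were called (5.65%), 9 higher and 8 lower, against 3.71% of all genes tested. Within 20 Mb, 30 of 541 were called (5.55%), 17 higher and 13 lower. Among these 30 were Evpl, Krt16 and Krt17, and Dhx58 and Ifi35 of the interferon-stimulated list. On the whole of chromosome 11 it was 65 of 1468 (4.43%), and on other chromosomes with over 500 tested genes the share ranged from 2.46% on chromosome 13 to 4.91% on chromosome 5. The strain of origin of sequences linked to the floxed allele was not tested.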

How the data were processed

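RNA was sequenced from sorted EYFP+ cells of 3 control, 3 LATS1/2-KO and 3 LATS1/2-Sox9-KO libraries. The deposited table holds read counts per gene, unnormalized. Per the labels and the study's methods, the authors aligned reads to mm10 with STAR 2.6.0c, used FastQC 0.11.7, and counted uniquely aligned proper pairs per non-mitochondrial gene with featureCounts of Subread 1.6.2 on Ensembl 100. Genes with near-identical copies may lose reads in such counts.

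Groups followed the labels. The counts of all 9 libraries were fitted together with edgeR 4.0.16 in R 4.3.3 (TMM factors, filterByExpr, quasi-likelihood test, Benjamini-Hochberg adjustment), and standard errors were taken from the test statistic. The script was tested on simulated data. Library totals were 44167762 to 61967651 counts, and no libraries were duplicates. Alternatives were DESeq2 1.42.0, other factors and filters, the 2 deletion genotypes alone, a replicate block, a fold change threshold test, each library left out and, added after the data were seen, a correction for GC content.

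The comparison and the gene lists were chosen with earlier results of these data known, and 3 lists were added after values were seen. Genes were named by rule: the targeted genes and Krt8, the 10 largest increases and decreases and the 10 largest changes toward and further from control (100 or more normalized counts on average in the higher genotype, no overlap, established symbol), up to 4 members of each list by adjusted p, the most counted marker, and the SOX factors. Some genes that the rule selects are not reported here. The remaining named genes were chosen after their values were seen. Promoter sequences came from RefSeq on GRCm38.p6.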

Additional observations from a re-analysis of the deposited data

How the results depend on the processing

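No called gene changed sign under any of the 19 alternatives, but the number of calls depended on them. DESeq2 called 509 genes higher and 750 lower, with 293 toward and 515 further from control, and shared 715 of the 719 calls. A test against a fold change of 2 itself (glmTreat) left 18 higher and 14 lower, with 3 toward and 19 further. With 1 library left out, calls ranged from 121 to 497 higher, 78 to 582 lower, 28 to 336 toward and 87 to 340 further. The fewest followed from leaving out LATS1/2-Sox9-KO replicate 2, which kept 193 of the 719 calls, and LATS1/2-KO replicate 3, which kept 253. Leaving out LATS1/2-KO replicate 1 gave the most calls and kept 636. Of the 154 named genes that were called, 51 were called in every alternative but glmTreat in which they were tested. Other normalization factors, filters, the 2 deletion genotypes alone and the GC correction gave 249 to 432 higher and 353 to 563 lower, and upper-quartile factors moved the median of all genes to -0.07. Sox9 was not called in any, with a log2 fold change of -0.58 to -0.19.

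The values did not settle whether the replicate numbers pair the libraries. The deviations of same-numbered LATS1/2-KO and LATS1/2-Sox9-KO libraries correlated at 0.106, 0.17 and -0.032. Those with different numbers correlated at -0.164 to 0.051. A fit with the replicate block called 265 higher and 336 lower, with 123 toward and 261 further, and Sox9 at -0.40. Depth limits the low genes, such as the interferons, most of which had too few counts to be tested.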
